A study of Mus musculus with 12 samples.

Results

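The genes described here encode the proteins of the cytosolic ribosome. They were chosen by name, as the genes whose name on the array is Rpl or Rps with a number (and at most 1 closing letter a, x, y or l), or Rplp0 to Rplp2. This gave 78 genes of 27549 gene names, and the rule uses no measured value. Of the 78, 77 were well above background on all 12 arrays and were tested, 46 of the large and 31 of the small subunit. Only Rpl3l was not tested.

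The ribosome of the cytosol reads messenger RNA and links amino acids into protein. Its small subunit holds the messenger and decodes it, and its large subunit makes the peptide bond. The cell needs the proteins of both subunits in about equal numbers, and their messengers are among the most abundant in growing cells. Most of these messengers begin with a run of pyrimidines (C or T), the terminal oligopyrimidine or TOP element, through which the mTOR pathway and the protein Larp1 regulate their translation.

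The cells came from CD-1 mouse embryos at embryonic day 7.5, pooled from about 300 embryos of 25 litters. They were sorted by 2 surface proteins, Endoglin (gene Eng), a co-receptor of the TGF-beta family, and Flk1 (gene Kdr), a receptor for vascular endothelial growth factor. The 4 fractions carry neither protein (Eng-Flk1-), Flk1 alone (Eng-Flk1+), both (Eng+Flk1+) or Endoglin alone (Eng+Flk1-). Where 4 means stand in a row they keep this order, from double negative to Endoglin alone. Each has 3 arrays, and each array holds amplified cDNA from 3000 sorted cells. No fraction was treated and the labels name no genetic change. Since a single pool supplied every sample, a p-value here speaks of differences between sorted samples, which may be technical, and not between embryos. A fraction can also hold several cell types, and a difference in cell mix cannot be told apart from a difference in RNA per cell.

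Spots well above background made up 66.5% to 76.3% on the Eng-Flk1- arrays and 80.2% to 83.3% on the other 9. No spot was saturated. Kdr was well above background on all 3 arrays of each Flk1+ fraction and on 1 array of each Flk1- fraction, and Eng on all 12. Summed visceral endoderm markers ran from 5.13 to 7.55 in Eng-Flk1-, against 0.98 to 2.11 on the other 9 arrays. In every fraction 6 of the 7 listed genes were above background on all 3 arrays. Amn was not highest in Eng-Flk1-, with means of -1.14, -1.79, -1.85 and -1.01. The defining marker Afp was above background on none of the Eng-Flk1- arrays. Summed epiblast markers ran from 4.39 to 5.95 in Eng-Flk1- (4 of 4 genes above background on all 3 arrays) and from 0.95 to 2.83 elsewhere. Summed endothelial markers ran from 4.18 to 4.75 in Eng+Flk1+ (4 of 4 genes, as in Eng-Flk1+) and from -1.93 to 1.59 elsewhere. Summed primitive erythroid markers ran from 4.48 to 5.34 in Eng-Flk1- (4 of 5 genes) and from 2.93 to 3.91 in Eng+Flk1- (5 of 5), against -0.01 to 1.73 in the Flk1+ fractions. The globin Hbb-bh1 followed this order, with means of 3.83, -1.26, -1.44 and 2.66, as did Hba-x (1.04, -4.10, -5.17 and -1.26). The globin Hbb-y did not, with 0.11, -1.64, -0.59 and -0.70. Gata1 did not either, with -2.63, -2.23, -1.84 and -1.34, and Klf1 was high in Eng+Flk1- alone (-2.39, -3.79, -3.57 and 1.22). Summed markers of trophoblast and extraembryonic ectoderm ran from 4.10 to 4.39 in Eng+Flk1- and from 1.35 to 3.13 elsewhere. All 5 were above background on all 3 arrays of Eng-Flk1-, Eng-Flk1+ and Eng+Flk1-. Summed mesoderm markers ran from -1.05 to 1.95 in Eng-Flk1- (4 of 6) and from 2.12 to 3.89 elsewhere. The mesoderm genes T (means of -1.57, -1.50, -2.52 and -3.55) and Lefty2 (-3.80, -4.44, -3.99 and -3.88) were not lowest in Eng-Flk1-. The part of these cell types in the levels of the members was not tested. These are log2 levels, in which the 75th percentile of the array is 0, and all levels below are on that scale. One log2 unit is a doubling, and levels of different genes come from different probes and are not compared.

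The annotated starts of a few members are shown because most messengers of this family are known to begin with a run of pyrimidines. RefSeq start regions (build GRCm38.p6) were matched for 57 of the 78 genes by symbol, and 21 had no entry. The windows run 5′ to 3′ from 15 bases before the annotated start through the first 15 transcribed bases, on the sense strand, with the longest run of C and T in capitals. The first 5 hold a run of at least 7 bases and the last 3 do not. In Rpl14, Rps10 and Rpl35a the run crosses the annotated start. In Rps15a and Rps27l it ends before the start, so by this annotation it is not in the messenger.
Rpl14: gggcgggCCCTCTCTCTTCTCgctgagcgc
Rps10: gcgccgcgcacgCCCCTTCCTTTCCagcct
Rpl35a: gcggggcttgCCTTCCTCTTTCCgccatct
Rps15a: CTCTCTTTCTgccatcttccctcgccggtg
Rps27l: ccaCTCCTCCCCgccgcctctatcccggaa
Rpl11: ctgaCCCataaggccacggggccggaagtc
Rps16: cccgCTTCTgtcgtgacgtagcactcaatg
Rps28: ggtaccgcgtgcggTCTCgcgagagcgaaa
The windows lie at chr9:120571502-120571531 (Rpl14, plus strand), chr17:27635230-27635259 (Rps10, minus), chr16:33056467-33056496 (Rpl35a, plus) and chr7:118116133-118116162 (Rps15a, minus). Those of the other genes lie at chr9:66946071-66946100 (Rps27l, plus), chr4:136053379-136053408 (Rpl11, minus), chr7:28350674-28350703 (Rps16, plus) and chr17:33824548-33824577 (Rps28, minus). A run of at least 7 pyrimidines was found in such a window in 32 of the 57 members (56.1%), against 5747 of all 27025 genes with an entry (21.3%). The letters CTTTC were found on the sense strand of the window in 16 of 57 members (28.1%) and in 1286 of 27025 genes (4.76%). CTTTC is itself made of pyrimidines and can lie within a longer run, so the counts overlap. These are matches to letters around an annotated start and not mapped transcript ends. Both counts take in matches that lie wholly before the start.

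The members were even in level compared with other genes. Their median level on an array lay between 4.79 and 6.25, so most were far above the 75th percentile of all spots. Over the 12 arrays the range of a member had a median of 1.76 log2 units, against 3.53 for all 22720 genes tested. It was under 2 in 51 of 77 members (66.2%) and in 19.8% of all genes. By fraction, the SD of the median member was 0.627, 0.257, 0.409 and 0.166 (n = 3 arrays each). For all genes it was 1.01, 0.576, 0.667 and 0.564, and bright probes vary less than dim ones.

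**Figure D1:**
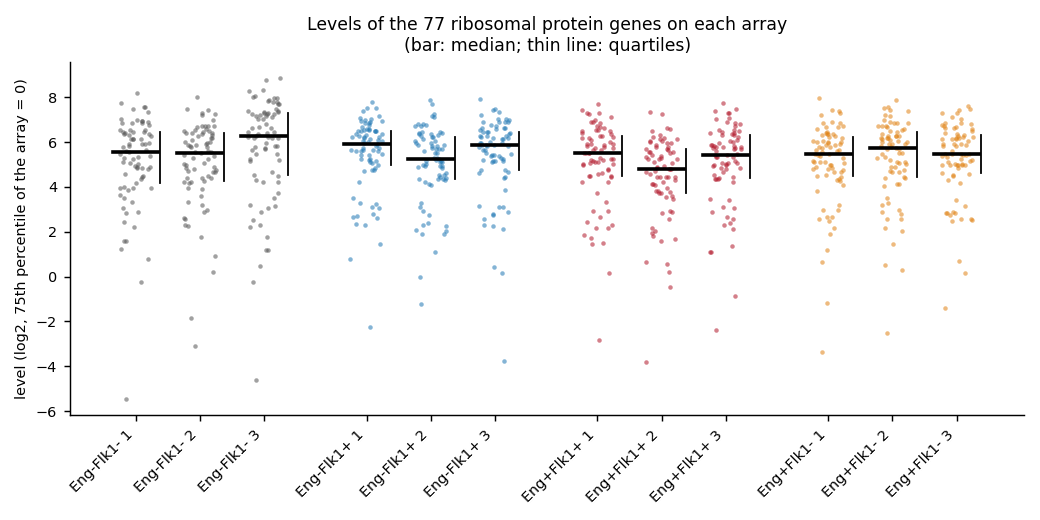
Each point is 1 of the 77 ribosomal protein genes on 1 array, by fraction and replicate (x axis), with its level in log2 units above the array's 75th percentile (y axis); the bar is the median and the thin line the quartiles. The median is highest on Eng-Flk1- replicate 3 (6.25) and lowest on Eng+Flk1+ replicate 2 (4.79), an order that quantile normalization does not keep for the former.

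No member passed the test in any comparison. In each of the 6 comparisons and in the interaction, 0 of 77 members had an adjusted p under 0.05 in limma with Benjamini-Hochberg adjustment over all genes. Of all genes, 1.91% were called for Eng-Flk1+ against Eng-Flk1-, 1.46% for Eng+Flk1- against Eng-Flk1- and 2.36% for Eng+Flk1+ against Eng-Flk1-. The share was 0.0264% for Eng+Flk1+ against Eng-Flk1+, 0.295% for Eng+Flk1+ against Eng+Flk1- and 0.101% for Eng-Flk1+ against Eng+Flk1-. It was 0.273% for the interaction, which asks whether the difference between fractions with and without Endoglin depends on Flk1. With shares this low, few or no calls among 77 genes is near the background.

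At an unadjusted p under 0.05 the same limma fit gave few members. For Eng-Flk1+ against Eng-Flk1- it gave 3 members, all higher (3.9%, against 17.7% of all genes). For Eng+Flk1- against Eng-Flk1- it gave 1, higher (1.3%, against 14.4%), and for Eng+Flk1+ against Eng-Flk1- it gave 4, all lower (5.19%, against 15.5%). It gave 0 members for Eng+Flk1+ against Eng-Flk1+ (4.78% of all genes), 0 for Eng+Flk1+ against Eng+Flk1- (6.6%) and 0 for Eng-Flk1+ against Eng+Flk1- (5.37%). For the interaction it gave 2, both negative (2.6%, against 10.5%).

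A p above the threshold does not show that levels were equal, so the intervals matter. The 95% interval of the log2 difference lay within 2 units either way for 65 to 75 of the 77 members, depending on the comparison between fractions. It lay within 1 unit either way for only 3 to 22 of them. For these probes the data thus limit most differences to under 4-fold, but rarely to under 2-fold.

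Although single members were not called, the family sat slightly to one side. The median member was lower in Eng+Flk1+ than in Eng-Flk1- by a log2 difference of -0.52, while the median of all genes was -0.06. Against Eng-Flk1+ the values for Eng+Flk1+ were -0.38 for members and 0.10 for all genes, and against Eng+Flk1- they were -0.29 and -0.01. The log2 difference was below 0 in 63, 73 and 75 of the 77 members in these 3 comparisons, which share the Eng+Flk1+ arrays. Of all genes, 52.4%, 44.4% and 50.9% were below 0. For Eng-Flk1+ against Eng-Flk1- the median member stood at -0.15 and all genes at -0.13, and for Eng+Flk1- against Eng-Flk1- at -0.22 and -0.06. Between the single positive fractions it was 0.08, with all genes at -0.09. For the interaction the medians were -0.15 and 0.14.

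Scaling turned the direction of the median against Eng-Flk1-, and single arrays moved the size of all 3 medians of Eng+Flk1+ but left each below 0. Dividing each array by its median, as the authors' deposited table does, moved the median member to -1.11 for Eng+Flk1+ against Eng-Flk1- (all genes -0.66), and quantile normalization moved it to 0.13 (all genes -0.11). Without Eng+Flk1+ replicate 2, the medians were -0.32 against Eng-Flk1-, -0.16 against Eng-Flk1+ and -0.07 against Eng+Flk1-. Without Eng-Flk1- replicate 3 the first was -0.29, and without both arrays it was -0.04, with 33 members above 0 and 44 below.

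The slides gave further values, since each slide held 4 arrays. Slide 1 held all Eng-Flk1- arrays and Eng-Flk1+ replicate 1. Slide 3 held all Eng+Flk1- arrays and Eng+Flk1+ replicate 3, and slide 2 held the rest. Slide and fraction are thus largely confounded. Within slide 2 the median member was -0.40 for Eng+Flk1+ (replicates 1 and 2) against Eng-Flk1+ (replicates 2 and 3). Within slide 3 it was -0.08 for Eng+Flk1+ replicate 3 against Eng+Flk1-, and within slide 1 it was 0.04 for Eng-Flk1+ replicate 1 against Eng-Flk1-. With the slide as a fixed block, Eng+Flk1+ against Eng-Flk1- stood at -0.37, though these fractions share no slide.

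**Figure D2:**
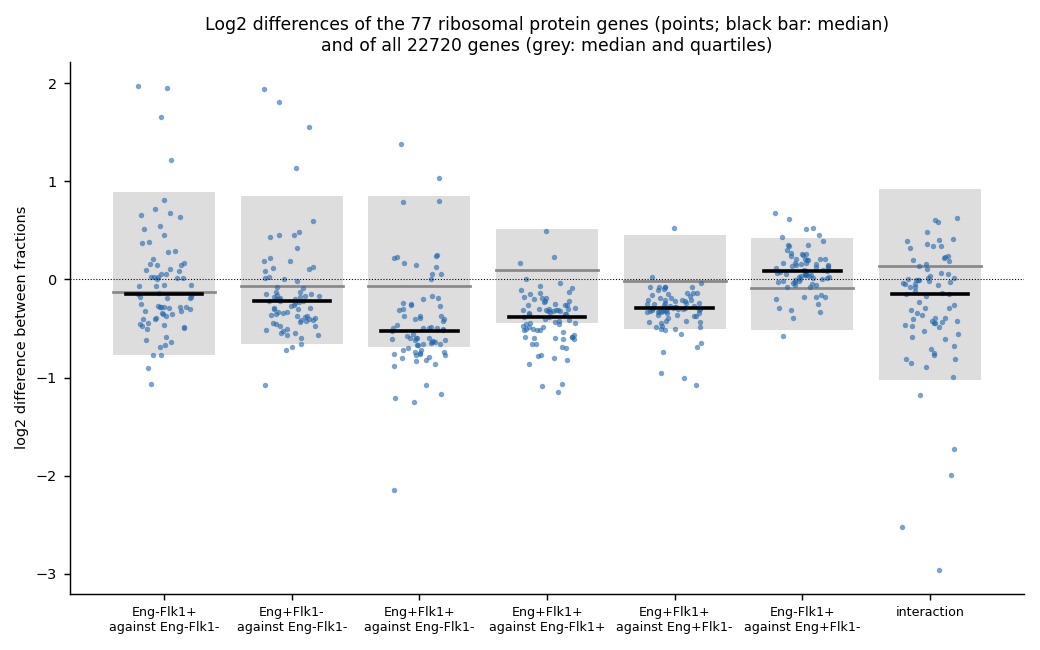
Points are log2 differences (y axis) of the 77 ribosomal protein genes in each comparison (x axis), with a black bar at their median; grey marks the median and quartiles of all 22720 genes tested. The members lie within a narrow band whose median is below 0 in the 3 comparisons of Eng+Flk1+ with another fraction (-0.52, -0.38 and -0.29); quantile normalization moves the first to 0.13.

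Both subunits lay on the same side. For Eng+Flk1+ against Eng-Flk1- the median log2 difference was -0.56 over the 46 large subunit genes and -0.49 over the 31 small subunit genes. Against Eng-Flk1+ it was -0.35 and -0.44, and against Eng+Flk1- it was -0.29 and -0.31. For Eng-Flk1+ against Eng-Flk1- the large subunit stood at -0.27 and the small at 0.00.

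The block shift was largest on 2 arrays. On Eng-Flk1- replicate 3, 52 of 77 members had their highest level of all 12 arrays (67.5%), as did 25.5% of all genes. On Eng+Flk1+ replicate 2, 57 of 77 members had their lowest level (74.0%), against 5.81% of all genes. The median member level was 6.25 on the first and 4.79 on the second, and 5.24 to 5.89 on the other 10 arrays. Averaged by fraction, the array medians were 5.78 ± 0.408, 5.66 ± 0.369, 5.24 ± 0.393 and 5.55 ± 0.148 (SD, n = 3).

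The high array is also the one with the fewest spots above background (66.5%) and with the highest summed visceral endoderm markers (7.55). The part of either in the level of the members was not tested. Relative to the own mean of each member, Eng-Flk1- replicate 3 stood at 0.79 with the 75th percentile, at 1.61 with the array median, at 0.64 with normexp background correction and at -0.34 with quantile normalization, so its direction turned with the scaling. Eng+Flk1+ replicate 2 stood at -0.72, -1.06, -0.68 and -0.33 and was low under all 4. Its share of spots above background (83.3%) was not low.

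**Figure D3:**
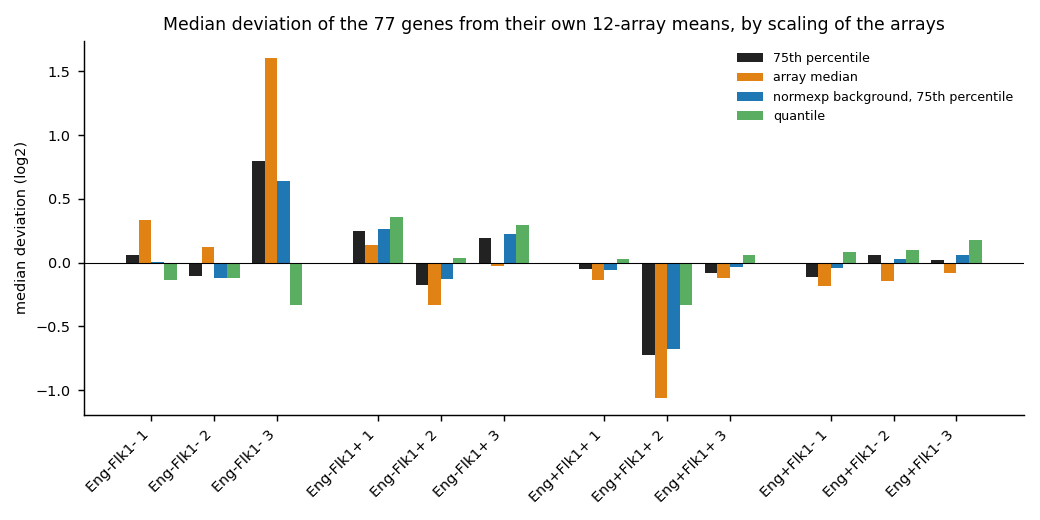
Bars give the median deviation of the 77 genes from their own means over 12 arrays (y axis, log2) on each array (x axis) under 4 ways of scaling the arrays. Eng+Flk1+ replicate 2 is below 0 under all 4 (-1.06 to -0.33), while Eng-Flk1- replicate 3 turns from 0.79 to -0.34 with quantile normalization.

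**Figure D4:**
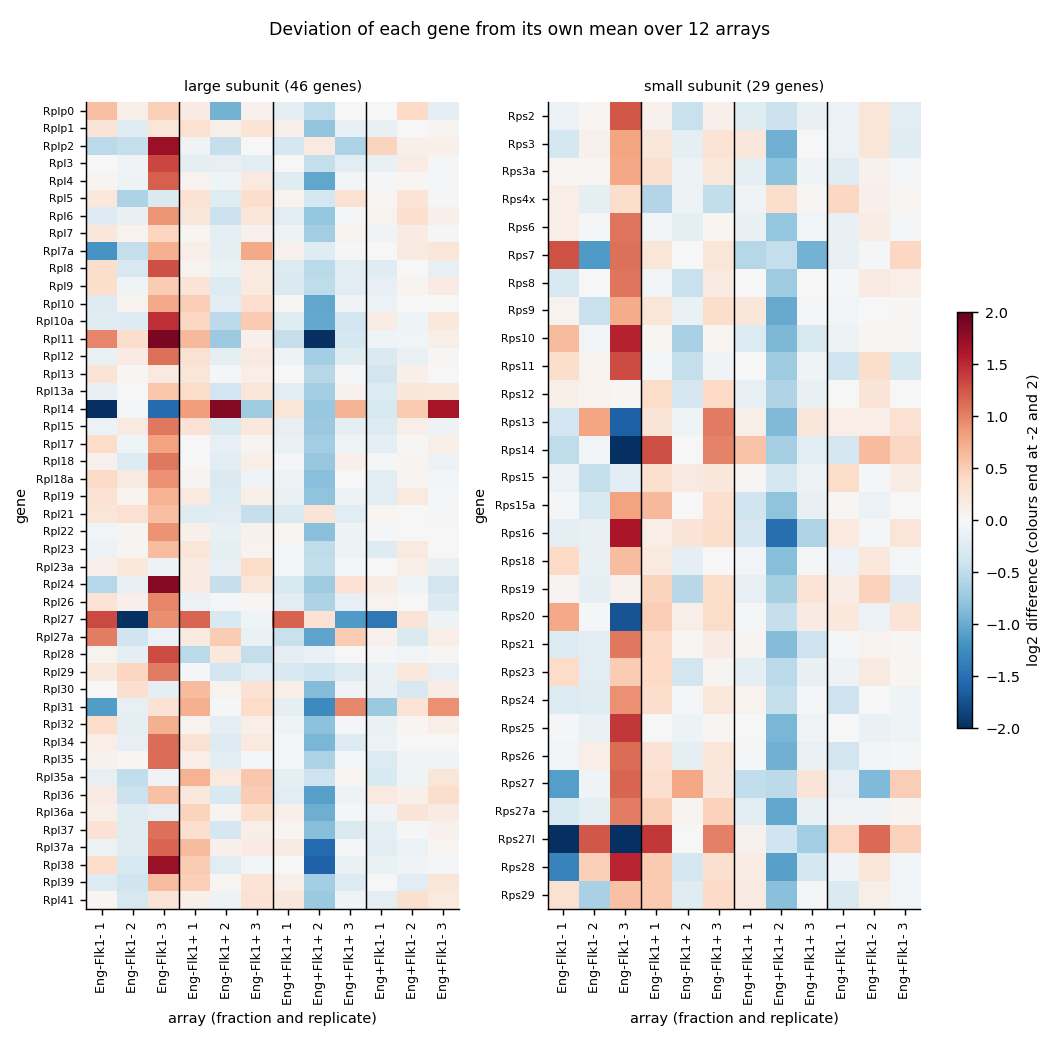
Colour gives the log2 deviation of each gene (rows) from its own mean on each array (columns), with the 46 large subunit genes on the left and 29 of the 31 small subunit genes tested on the right. Eng-Flk1- replicate 3 is red for most genes and blue for a few (Rps13, Rps14, Rps20, Rps27l, Rpl14), and Eng+Flk1+ replicate 2 is blue for most; with quantile normalization the median deviation on Eng-Flk1- replicate 3 turns to -0.34.

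The member with the lowest p was Rpl11, which with Rpl5 and the 5S RNA forms a particle that can bind Mdm2 and so stabilise p53. Rpl11 measured 3.62, 2.99 and 4.51 in Eng-Flk1-, 3.29, 1.90 and 2.74 in Eng-Flk1+, 2.17, 0.21 and 2.28 in Eng+Flk1+, and 2.55, 2.58 and 2.76 in Eng+Flk1-. The 3 double positive arrays lay below the 3 double negative arrays without overlap, and Eng+Flk1+ replicate 2 lay lowest by far. The log2 difference was -2.15 ± 0.64 (SE; limma, unadjusted p 0.0068, adjusted p 0.136; 95% interval -3.57 to -0.73), the widest of all members in that comparison. With each array left out in turn it ran from -2.51 to -1.48. With the slide as a random block it was -2.47 ± 0.49 (SE; limma, adjusted p 0.0107). That fit took a negative correlation within slides (-0.19) and had a smaller standard error. With the slide as a fixed block Rpl11 was not called, and these fractions share no slide.

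Rpl11 also showed a second probe that disagreed in spread. Its chosen probe maps to chr4:135322046-135322368 (mm8, as the array files give it), a span longer than its 60 bases, so it crosses an intron. The other probe, named for a different transcript, was above background on 10 of 12 arrays and ranged over 11.3 log2 units. It lies at chr4:135322118-135322177, within the span of the chosen probe. By these coordinates it falls in the crossed intron, so it is not a second reading of the spliced messenger. Its difference for the same comparison was -3.41. Rpl5, the partner in the 5S particle, varied less. Its means by fraction were 5.21 ± 0.414, 5.58 ± 0.325, 5.46 ± 0.335 and 5.54 ± 0.165 (SD, n = 3), and its range over the 12 arrays was 0.97.

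Of the small subunit, Rps16 and Rps10, which both sit in the head of the subunit, were lower in Eng+Flk1+ at an unadjusted p under 0.05. Rps16 measured 3.88, 3.91 and 5.70 in Eng-Flk1-, 4.20, 4.33 and 4.41 in Eng-Flk1+, 3.73, 2.56 and 3.46 in Eng+Flk1+, and 4.26, 4.04 and 4.30 in Eng+Flk1-. All 3 double positive arrays lay below the other 9. The log2 difference was -1.25 ± 0.54 against Eng-Flk1- (SE; limma, adjusted p 0.301), -1.07 ± 0.54 against Eng-Flk1+ (adjusted p 0.999) and -0.95 ± 0.54 against Eng+Flk1- (adjusted p 0.931). Rps16 has a single probe, at chr7:28061375-28061434 (mm8).

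Rps10 measured 6.78, 6.09 and 7.69 in Eng-Flk1-, 6.18, 5.49 and 6.19 in Eng-Flk1+, 5.87, 5.24 and 5.83 in Eng+Flk1+, and 6.04, 6.18 and 6.17 in Eng+Flk1-. The double positive arrays again lay below all double negative ones, at a difference of -1.21 ± 0.47 (SE; limma, adjusted p 0.251). Rpl29, a large subunit protein, had the same order with a smaller spread. On its chosen probe the 3 Eng-Flk1- arrays at 6.28, 6.49 and 7.11 lay above all other 9, which lay between 5.67 and 6.27. The difference for Eng+Flk1+ against Eng-Flk1- was -0.88 ± 0.37 (SE; limma, adjusted p 0.286). The other 3 probes of Rpl29 were above background on 12 arrays, and on each the Eng-Flk1- arrays overlapped other arrays. Their differences for Eng+Flk1+ against Eng-Flk1- were -0.57, -0.53 and -0.75. With the slide as a random block, Rpl11, Rpl29 and Rps10 passed the threshold in this comparison, with adjusted p of 0.0107, 0.0495 and 0.0372 in limma. Their standard errors were smaller in that fit (0.27 for Rpl29 and 0.35 for Rps10), at a correlation within slides of -0.19. With the slide as a fixed block none of the 3 passed.

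A small set of members ran against the family on the Eng-Flk1- arrays. After the median member of each array was subtracted, Eng-Flk1- replicate 3 lay below the usual place of the gene by over 1 unit for 8 members. Among them were Rps27l (-3.45), Rps14 (-3.03), Rps20 (-2.64), Rps13 (-2.52) and Rpl14 (-2.39). On the same array most other members were at their highest. The number of members over 1 unit from their usual place in either direction was 10, 2 and 13 on the 3 Eng-Flk1- arrays and 0 to 4 on the other 9.

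Rps27l, a close relative of Rps27 that p53 is known to induce, was one of this set. It measured -0.26, 3.31 and -0.25 in Eng-Flk1-, 3.50, 2.07 and 3.09 in Eng-Flk1+, 2.16, 1.67 and 1.38 in Eng+Flk1+, and 2.49, 3.21 and 2.54 in Eng+Flk1-. Double negative replicates 1 and 3 lay below every other array, but replicate 2 lay among the highest. The log2 difference from Eng-Flk1- was 1.95 ± 0.86 for Eng-Flk1+ (SE; limma, adjusted p 0.276) and 1.81 ± 0.86 for Eng+Flk1- (adjusted p 0.373), and the interaction was -2.96 ± 1.22 (adjusted p 0.434). Without Eng-Flk1- replicate 2 these became 3.14, 3.00 and -4.15, with adjusted p of 0.0114, 0.0157 and 0.0235 in limma. So 1 array decides whether Rps27l is called.

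Its partner Rps27 did not have this pattern. Rps27 measured 1.23, 2.25 and 3.49 in Eng-Flk1-, 2.67, 3.10 and 2.56 in Eng-Flk1+, 1.84, 1.81 and 2.59 in Eng+Flk1+, and 2.17, 1.46 and 2.83 in Eng+Flk1-. Its highest value of all came on Eng-Flk1- replicate 3, where Rps27l was near its lowest. The probe of Rps27l lies at chr9:66746823-66748513 and that of Rps27 at chr3:90298596-90298655 (mm8), and neither shares a run of 30 bases with the other.

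Rps14, a small subunit protein near the path of the messenger, was lowest on Eng-Flk1- replicate 3. Rps14 measured 3.94, 4.38 and 2.31 in Eng-Flk1-, 5.73, 4.43 and 5.43 in Eng-Flk1+, 5.0, 3.78 and 4.23 in Eng+Flk1+, and 4.10, 5.08 and 4.86 in Eng+Flk1-. Every Flk1 single positive array lay above every double negative one, with a difference of 1.65 ± 0.63 (SE; limma, adjusted p 0.218).

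Rpl14 was the dimmest member tested on its probe, so its values lie closer to background. It measured -5.45, -3.09 and -4.60 in Eng-Flk1-, -2.23, -1.22 and -3.77 in Eng-Flk1+, -2.81, -3.81 and -2.37 in Eng+Flk1+, and -3.37, -2.54 and -1.41 in Eng+Flk1-. The ranges of Eng-Flk1- and each other fraction overlapped. The log2 difference from Eng-Flk1- was 1.97 ± 0.83 for Eng-Flk1+ and 1.94 ± 0.83 for Eng+Flk1- (SE; limma, adjusted p 0.252 and 0.318). With the slide as a random block the latter was 2.02 ± 0.56 (SE; limma, adjusted p 0.0421). With the slide as a fixed block it was not called, though Eng+Flk1- and Eng-Flk1- share no slide. The probe lies at chr9:120423269-120423328 (mm8).

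**Figure D5:**
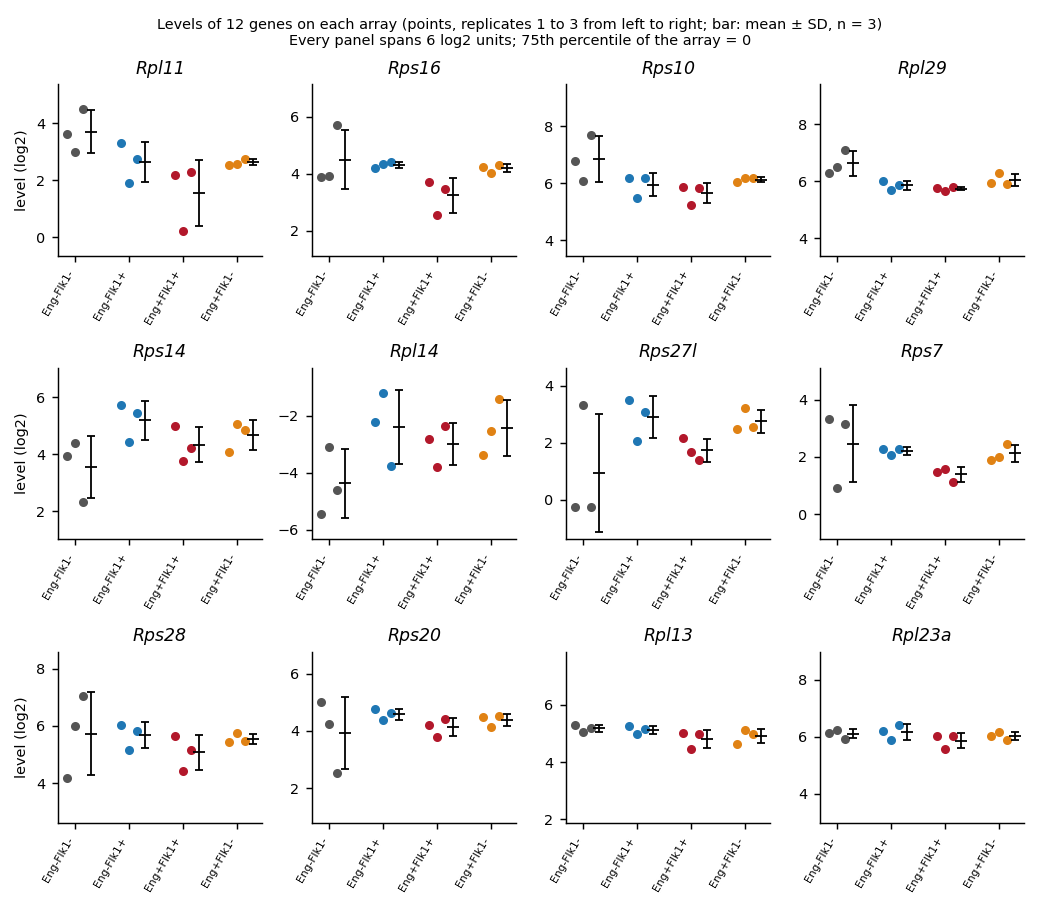
Points are the levels of 12 genes on each array (y axis, log2, each panel 6 units high) by fraction (x axis), with the mean ± SD of 3 arrays beside them. Rps14 and Rps20 are lowest on Eng-Flk1- replicate 3 (2.31 and 2.54), Rps28 is lowest on Eng-Flk1- replicate 1 (4.18), and Rpl13 and Rpl23a vary by under 1 unit on the probes shown.

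Rps20, Rps7, Rps19, Rpl24, Rpl38 and Rpl27a are genes in which mouse mutations are known to affect pigment or the body plan. Rps20 measured 5.02, 4.23 and 2.54 in Eng-Flk1- and between 3.80 and 4.76 on the other 9 arrays. Rps7 measured 3.32, 0.91 and 3.15 in Eng-Flk1-, 2.29, 2.05 and 2.30 in Eng-Flk1+, 1.48, 1.58 and 1.11 in Eng+Flk1+, and 1.90, 2.02 and 2.46 in Eng+Flk1-. The 3 double positive arrays lay below both single positive fractions, and the difference from Eng+Flk1- was -0.74 ± 0.59 (SE; limma, adjusted p 0.999). Without Eng-Flk1- replicate 2, Rps7 passed the threshold against Eng-Flk1- (-1.85, limma, adjusted p 0.0318).

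Rpl38, which is known for its role in the translation of Hox messengers, had means of 5.07 ± 1.04, 4.57 ± 0.373, 3.91 ± 0.891 and 4.41 ± 0.0512 (SD, n = 3). Its extremes were 6.21 on Eng-Flk1- replicate 3 and 2.88 on Eng+Flk1+ replicate 2, the same 2 arrays as for the family. Rpl24 had means of 4.90 ± 1.27, 4.52 ± 0.383, 4.29 ± 0.502 and 4.43 ± 0.257 in the same order. Rps19, the gene most often mutated in Diamond-Blackfan anaemia, had means of 2.80 ± 0.148, 2.90 ± 0.547, 2.63 ± 0.472 and 2.93 ± 0.36. Rpl27a had means of 0.75 ± 0.751, 0.77 ± 0.323, 0.26 ± 0.785 and 0.56 ± 0.232. For these 3 genes the fraction means lay within the spread of the arrays.

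The stalk proteins Rplp0, Rplp1 and Rplp2 recruit the elongation factors to the large subunit. Rplp1 had means of 2.90 ± 0.284, 3.04 ± 0.102, 2.53 ± 0.46 and 2.77 ± 0.104, and Rplp0 had 5.70 ± 0.25, 5.07 ± 0.618, 5.07 ± 0.263 and 5.36 ± 0.288 (SD, n = 3). Rplp2 measured 4.47 on Eng-Flk1- replicate 3 and between 2.12 and 3.20 on the other 11 arrays. Of the 3, Rplp1 alone had its lowest value on Eng+Flk1+ replicate 2 (2.02). Rps6, whose protein is phosphorylated downstream of mTOR, followed the family, with 7.49 on Eng-Flk1- replicate 3, 5.65 on Eng+Flk1+ replicate 2 and 6.24 to 6.56 on the other 10.

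Between the single positive fractions the members with the lowest p were Rps4x, Rpl35a, Rpl30 and Rps27. Rps4x, the X-linked small subunit gene, measured 3.52, 3.19 and 3.73 in Eng-Flk1-, 2.80, 3.28 and 2.89 in Eng-Flk1+, 3.32, 3.74 and 3.41 in Eng+Flk1+, and 3.80, 3.48 and 3.41 in Eng+Flk1-. On this probe, which has no position in the array annotation, it was among its highest on Eng+Flk1+ replicate 2, unlike most of the family. The difference for Eng-Flk1+ against Eng+Flk1- was -0.57 ± 0.36 (SE; limma, adjusted p 0.9997). The other Rps4x probe, above background on 12 arrays, disagreed. It measured -0.44 on Eng+Flk1+ replicate 2, among its lowest values, and its difference for Eng-Flk1+ against Eng+Flk1- was 0.002. For Eng+Flk1+ against Eng-Flk1+ the chosen probe gave 0.50 and the other -0.32. Rpl35a measured 5.43, 4.94 and 5.28 in Eng-Flk1+, 4.57, 4.32 and 4.79 in Eng+Flk1+, and 4.44, 4.65 and 4.98 in Eng+Flk1-. Its Eng-Flk1+ arrays lay above the double positive ones, at a difference of -0.66 ± 0.36 for Eng+Flk1+ against Eng-Flk1+ (SE; limma, adjusted p 0.999).

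In the comparisons of Eng+Flk1+ with single positive fractions, the lowest p values after Rps16 belonged to Rps15a, Rps27a, Rpl36 and genes already named. Rps15a had means of 5.93 ± 0.318 in Eng-Flk1+ and 5.16 ± 0.337 in Eng+Flk1+ (SD, n = 3). Rps27a, which is made as a fusion with ubiquitin, had 5.51 ± 0.241 and 4.71 ± 0.501. Rpl36 had 4.17 ± 0.536 in Eng+Flk1+ and 4.86 ± 0.123 in Eng+Flk1-. Rpl30 had 4.80 ± 0.278 in Eng-Flk1+ and 4.36 ± 0.242 in Eng+Flk1-. Their adjusted p in limma lay between 0.9955 and 0.9997.

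The paralog Rpl3l, which replaces Rpl3 in heart and skeletal muscle, was above background on 3 of 12 arrays. Those were Eng-Flk1+ replicate 2 (-4.13) and Eng+Flk1+ replicates 1 (-1.62) and 2 (-3.77). On the other 9 arrays it lay between -8.57 and -6.58, not well above background. Rpl3, its partner, measured 6.04 on Eng+Flk1+ replicate 2, 7.86 on Eng-Flk1- replicate 3 and 6.29 to 6.66 on the other 10. Rpl10 and Rpl39 followed the family as well, with their highest values (6.25 and 5.73) on Eng-Flk1- replicate 3 and their lowest (4.45 and 4.43) on Eng+Flk1+ replicate 2.

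The steadiest members were Rpl13, Rps15 and Rpl23a, with ranges of 0.83, 0.85 and 0.86 over the 12 arrays on their chosen probes. The 2 other probes of Rpl13 ranged over 1.59 and 4.94 and the other probe of Rpl23a over 1.65, all above background on 12 arrays, while Rps15 has a single probe. Rpl13 lay between 4.46 and 5.29, Rps15 between 3.97 and 4.82, and Rpl23a between 5.56 and 6.42. Rpl13 and Rpl23a had their lowest value on Eng+Flk1+ replicate 2. None of these 3 had its highest value on Eng-Flk1- replicate 3.

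Several members had more than 1 probe, which gives a check within an array. There were 129 member probes, with 41 genes on 1 probe and 37 on several. Of the 51 other probes, 41 were above background on all 12 arrays. Their log2 difference had the sign of the chosen probe in 27 to 38 of the 41, depending on the comparison. The 3 probes of Rps28 moved together: on Eng-Flk1- replicate 1 they measured 4.18, 3.76 and 3.62, while on Eng-Flk1- replicate 2 they measured 5.99, 5.98 and 6.02. So the low value of Rps28 on that array is seen by each probe, though 2 of the 3 share a run of at least 30 bases.

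Rps24 showed the opposite. Its chosen probe, at chr14:23324565-23325890 (mm8), lay between 5.95 and 7.33 on all arrays. The 2 other probes lie at chr14:23327912-23327971 and chr14:23329232-23329291, are named for other transcripts and were each above background on 10 arrays. The first of these measured -7.86, -2.45 and -7.29 in Eng-Flk1-, and the second 1.82, -6.80 and -6.56. On the other 9 arrays they lay between -3.80 and -0.81 and between 0.16 and 1.81. If all probes of a gene are averaged, Rps24 is therefore called as higher in each other fraction than in Eng-Flk1- (differences of 3.08, 3.09 and 2.72; limma, adjusted p 0.0268, 0.0351 and 0.0409), a change its main probe does not show.

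Ribosomal protein genes have many near-identical processed copies in the mouse genome, and the probes were not aligned to a genome here. On the array itself, 2 of 129 member probes shared a run of 30 bases with a probe of another name. Chosen probes of 30 of the 78 genes span more than 60 bases in the file coordinates, so they cross an intron. Array probes do not separate a transcript from an expressed copy of the same sequence.

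The rest of the pathway was read from 4 lists of genes. The 8 ribosomal proteins outside the name rule (among them Rpsa and Fau) had 0 calls in limma and, at an unadjusted p under 0.05, 0 or 1 gene per comparison. Their median log2 difference for Eng+Flk1+ against Eng-Flk1- was -0.46, beside -0.52 for the 77 members and -0.06 for all genes. The 39 translation factors and other messengers of the TOP class, such as Eef1a1 and Pabpc1, had 0 calls in limma and a median of -0.41 there. At an unadjusted p under 0.05 the limma fit gave 6, 5 and 4 of the 39 for Eng-Flk1+, Eng+Flk1- and Eng+Flk1+ against Eng-Flk1- (all genes 17.7%, 14.4% and 15.5%), 4 for the interaction and 0 in the other 3 comparisons. The 16 regulators, among them Myc, Mtor and Larp1, had 0 calls in limma and a median of 0.21. At an unadjusted p under 0.05 the limma fit gave 5, 5 and 6 of the 16 in the same 3 comparisons with Eng-Flk1-, and 0 in the other 3 and in the interaction.

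Ribosome biogenesis was the list with called genes: of 39 tested, 2 rose in Eng-Flk1+ against the double negative cells, 1 did so in Eng+Flk1- and 2 rose in Eng+Flk1+, and none fell. Over all genes 1.91%, 1.46% and 2.36% were called, so counts this small among 39 genes are near the background. The list median in these comparisons was 0.00, 0.15 and -0.26. For Eng+Flk1+ against Eng-Flk1+ and against Eng+Flk1- it was -0.48 and -0.51, with 33 and 35 of 39 genes below 0. In the same comparisons the translation list stood at -0.30 and -0.32, with 31 and 34 of 39 below 0. The 77 members stood at -0.38 and -0.29, the regulators at 0.001 and -0.25 and all genes at 0.10 and -0.01. Of all genes, 44.4% and 50.9% were below 0 there. Polr1a, the largest subunit of the polymerase that makes ribosomal RNA, measured -6.62, -8.14 and -5.47 in Eng-Flk1- and was not well above background there. It measured 1.39, 0.45 and -0.78 in Eng-Flk1+, -1.97, -1.28 and 0.36 in Eng+Flk1+, and -1.63, -0.51 and -0.07 in Eng+Flk1-, above background on all 9. With the dimmest probe above background on each Eng-Flk1- array as the floor, these fractions were 60.6-fold, 24.3-fold and 28.4-fold higher. These are not lower limits, since a gene not well above background can lie above that floor. Over the alternative settings the smallest log2 differences of Polr1a in these fractions were 3.01, 1.85 and 2.04. The floored values were not tested. Without a floor the log2 differences were 7.09, 5.78 and 6.002 (limma, adjusted p 0.00359, 0.00713 and 0.00855).

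Nip7 and Pes1, which both act in the maturation of the large subunit, were the other 2. Nip7 measured -1.27, -0.72 and -0.62 in Eng-Flk1- and 1.79, 0.78 and 1.54 in Eng-Flk1+, a log2 difference of 2.24 ± 0.41 (SE; limma, adjusted p 0.0222). Pes1 measured 1.61, 1.79 and -0.63 in Eng-Flk1- and 3.63, 3.40 and 4.10 in Eng+Flk1+, a difference of 2.79 ± 0.62 (SE; limma, adjusted p 0.0462). The Polr1a interaction was negative (-7.32 ± 1.22 SE; limma, adjusted p 0.0428) and rests on Eng-Flk1- values not well above background. With the slide as a fixed block none of these calls remained. The adjusted p in limma was 0.0603, 0.366 and 0.870 for Polr1a, 0.236 for Nip7, 0.981 for Pes1 and 0.317 for the interaction. In that fit slide and fraction are largely confounded, since Eng-Flk1- shared a slide with Eng-Flk1+ replicate 1 alone. The fitted log2 differences were then 8.13, 6.67 and 5.57 for Polr1a in Eng-Flk1+, Eng+Flk1+ and Eng+Flk1- (7.09, 5.78 and 6.002 without the block, all against levels not well above background), 2.66 for Nip7, 2.57 for Pes1 and -7.03 for the interaction, with larger standard errors (1.09 to 1.81, 0.62, 1.28 and 1.54). Over all settings tried, that block among them, the call for Eng-Flk1+ was kept in 23 of 26 for Polr1a and in 18 of 27 for Nip7, and that of Pes1 for Eng+Flk1+ in 9 of 26.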

How the data were processed

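Expression was measured on 12 one-colour Agilent arrays, 3 for each of 4 sorted fractions. Per the file headers, arrays were read with Agilent Feature Extraction 10.5.1.1, and the processed signal is an intensity per spot with background subtracted. The deposited files also hold flags per spot (above background, outlier), used as other values. The authors' deposited table gives the intensity of each array over its own median.

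The 1639 control spots per array were left out, outlier spots were set aside, log2 was taken, the 75th percentile of each array was subtracted, and spots of a probe were averaged. Names were updated through RefSeq for 41174 probes, and 8019 kept the name in the file. The 2 probes named Arbp update to Rplp0 and were kept apart. A gene takes its probe with the highest mean. Tested genes were above background throughout at least 1 fraction (3 arrays). The number of arrays limits the precision.

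A single model over 12 arrays was fitted with limma 3.58.1 (R 4.3.3, with the data.table package, version 1.17.8), with eBayes moderation, and p-values were adjusted by Benjamini-Hochberg across the 22720 genes tested. It was checked on simulated data. Errors of differences are SE, and intervals are 95%. A floor for genes below background is the level of the dimmest probe above background on the array. The name rule uses no measured value, but the family and the lists were chosen with earlier results of these data known. Named members are the 4 with the lowest p in each comparison (none being called), the 3 widest and 3 narrowest ranges, paralogs, stalk and 5S particle proteins, genes with known mouse mutants, and Rps6. Some results that the rule takes are not reported here. Rps13, Rps24 and Rps28 were named after their values were seen. Same-numbered replicates did not pair (18 correlations of deviations, -0.09 to 0.13). Alternatives covered scaling, background, filter, probe, slide, spread and leaving out arrays.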

Additional observations from a re-analysis of the deposited data

How the results depend on the processing

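The count of called members was 0 in every comparison under most settings, with these exceptions. The mean of all probes gave 1 (Rps24) in each of the 3 comparisons with Eng-Flk1-. The slide as a random block, at an estimated correlation within slides of -0.19, gave 3 for Eng+Flk1+ and 1 for Eng+Flk1- against Eng-Flk1-. Standard errors of those members were smaller in that fit. The slide as a fixed block called no member, though Eng-Flk1- shares no slide with Eng+Flk1+ or Eng+Flk1-. Leaving out 1 array gave 0 to 1, and the single call came without Eng-Flk1- replicate 2 (Rps7 for Eng+Flk1+, Rps27l for the other 2 comparisons with Eng-Flk1- and for the interaction). A replicate block gave 0 in every comparison and left the medians as they were (-0.52 for Eng+Flk1+ against Eng-Flk1-).

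The median log2 difference of the 77 members moved most with scaling. For Eng+Flk1+, Eng+Flk1- and Eng-Flk1+ against Eng-Flk1- in turn, it was -1.11, -0.79 and -0.75 with the array median, -1.12, -0.78 and -0.75 with the authors' deposited table, and 0.13, 0.35 and 0.41 with quantile normalization. The array median also moved the median of all genes, to -0.66, -0.63 and -0.74. Scaling to the median member, chosen after seeing the data, sets the median near 0 by construction (0.019 for Eng+Flk1+ against Eng-Flk1- and 0.042 against Eng-Flk1+) and bears on nothing else. Leaving out both Eng-Flk1- replicate 3 and Eng+Flk1+ replicate 2, also chosen after seeing the data, gave -0.038. With 1 array left out, the medians ran from -0.77 to -0.29 for Eng+Flk1+, from -0.42 to 0.01 for Eng+Flk1- and from -0.36 to 0.09 for Eng-Flk1+ against Eng-Flk1-. They ran from -0.53 to -0.16 for Eng+Flk1+ against Eng-Flk1+, from -0.40 to -0.07 against Eng+Flk1-, and from -0.00 to 0.25 for Eng-Flk1+ against Eng+Flk1-. Of 752 differences of single members over these settings, 0 were reversed and 7 newly passed the threshold. These differences covered only members with the lowest p, each in the comparisons where its p was among the lowest. Such members were picked from the same data, so the lack of reversals is weak evidence and does not extend to the other members. The 7 leave out the calls of Rps7 and Rps24 given above. The causes were not tested. With 3 arrays a fraction, differences under 2-fold were mostly not detectable.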
